A study of Mus musculus with 144 samples.

Results

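The 9 genes described here, Atf4, Atf5, Ddit3, Trib3, Chac1, Asns, Ppp1r15a, Ppp1r15b and Sesn2, belong to the ATF4 branch of the integrated stress response or to the group of mRNAs with short reading frames ahead of the coding sequence. They were chosen by name, and all 9 were found among the 51912 genes of the count table. The study asked how polyadenylation sites are used over the day in mouse liver, and 3′ mRNA sequencing, which counts transcripts by the stretch beside the poly(A) tail, was run on 144 libraries. All came from livers of male C57BL/6J mice housed under 12 h light and 12 h darkness and fed without restriction; the labels give no ages. Wild-type livers gave 3 of the 4 series, total RNA, nuclear RNA and polysomal RNA, which is recovered with ribosomes, and the fourth was total RNA of Bmal1-/- mice, which lack the clock transcription factor BMAL1. Each series held 6 libraries per time point, and the 6 time points, in zeitgeber time (ZT), where ZT0 is lights on, were ZT2, ZT6, ZT10, ZT14, ZT18 and ZT22. The labels name neither the Bmal1 allele nor the tissues in which it was deleted, and do not say whether the fractions came from the same animals, so p-values measure the spread between these libraries.

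In the integrated stress response, kinases such as GCN2 and PERK phosphorylate the initiation factor eIF2, which lowers translation in general and lets ribosomes pass the upstream frames of a few mRNAs and reach the main coding sequence. ATF4, made in this way, switches on genes for amino acid synthesis and transport, redox balance and feedback. In liver the response is known for its link to amino acid supply, feeding and secretory load. Upstream frames are known for Atf4, Atf5, Ddit3, Chac1, Ppp1r15a and Ppp1r15b, while Trib3, Asns and Sesn2 are best known as targets of ATF4.

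ATF4 binds DNA together with C/EBP factors at a composite element, written here as TGATGNAA or, on the other strand, TTNCATCA. In RefSeq promoters of build GRCm38.p6, which run from 250 bases before to 50 after the start of the transcript, this element was looked for on both strands. The table held 9 windows for 8 of the genes, all but Ppp1r15b, and 3 of the 9 windows had a match, those of Chac1, Trib3 and Asns. Of all 32851 promoter windows, 3.97% had one. These 3 genes also had the widest daily swings in wild-type total RNA, but a link between the element and the swings was not tested. All 3 matches are shown. The capitals mark the element, and each sequence is read on the strand of its gene.
Chac1, chr2:119351038-119351067 (plus strand): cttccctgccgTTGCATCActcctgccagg
Trib3, chr2:152344028-152344057 (minus strand): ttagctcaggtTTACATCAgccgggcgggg
Asns, chr6:7693214-7693243 (minus strand): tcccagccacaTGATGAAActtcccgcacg
The element began 193 bases upstream of the start of Chac1 and 23 bases upstream of that of Asns. In Trib3 it lay within the transcript, 14 bases after the first. The wider upstream context of Chac1, chr2:119350992-119351241 (plus strand), and of Asns, chr6:7693210-7693459 (minus strand), is given next, again with the element in capitals.
Chac1 upstream: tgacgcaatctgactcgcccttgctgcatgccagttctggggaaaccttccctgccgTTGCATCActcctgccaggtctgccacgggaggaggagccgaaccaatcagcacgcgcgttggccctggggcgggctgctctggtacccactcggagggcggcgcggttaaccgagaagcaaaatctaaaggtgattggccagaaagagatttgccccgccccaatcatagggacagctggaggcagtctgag
Asns upstream: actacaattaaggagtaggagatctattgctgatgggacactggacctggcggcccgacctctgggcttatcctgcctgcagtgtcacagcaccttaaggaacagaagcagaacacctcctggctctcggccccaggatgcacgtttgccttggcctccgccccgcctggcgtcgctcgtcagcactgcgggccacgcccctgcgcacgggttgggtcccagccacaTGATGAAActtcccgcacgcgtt
The E-box bound by BMAL1 and CLOCK, CACGTG, was found in 0 of the 9 windows and in 7.15% of all windows. The D-box, TTATGTAA, was found in 0 of the 9 and in 0.938% of all. A match is a description of the letters, not of binding.

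The summed gene counts of a library lay between 5316601 and 9831142 for total RNA of wild type, 1662449 and 6620128 for nuclear, 2578048 and 13068044 for polysomal and 4379549 and 14281894 for Bmal1-/- RNA. Levels are given in CPM, a gene's counts scaled to 1000000 counts per library. Arntl, the gene of BMAL1, had a mean of 11.5 CPM ± 2.98 (SD, n = 36) in the Bmal1-/- libraries and 6.73 ± 5.40 (SD, n = 36) in wild-type total RNA; reads at the 3′ end check nothing about a deletion elsewhere in the gene. The nuclear RNA Neat1 fell from a mean of 167 CPM in total to 9.40 CPM in polysomal RNA and rose to 1621 CPM in nuclear RNA, while Malat1, also known as a nuclear RNA, was lower in nuclear than in total RNA (1566 against 1839 CPM, log2 -0.32, edgeR adjusted p = 0.0155). The hepatocyte markers were all expressed in every series, with a median sum of 85079 CPM in total and 41872 CPM in polysomal RNA, while 5 erythroid markers summed to a median of 2585 CPM in total and 8852 CPM in polysomal RNA; their part in the polysomal ratios was not tested. In bulk RNA, fewer cells of a type and less RNA per cell cannot be told apart.

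Some libraries stood apart. Replicate 4 of wild-type total RNA at ZT2 was least like its group, with a median correlation of 0.883 against 0.941 for the next. All 6 polysomal libraries numbered 1 held airway transcripts (57.1 to 929 CPM over 3 genes, at most 0.301 CPM in any library of the other series), and 4 other polysomal libraries held pancreatic transcripts (48.9 to 5195 CPM over 9 genes, at most 3.64 CPM elsewhere). In 1 library of each series the female transcript Xist exceeded 100 CPM although the mice are labelled male. All of these libraries were at ZT22. They were total RNA replicate 5 (408 CPM), nuclear replicate 5 (4363 CPM), polysomal replicate 1 (165 CPM) and Bmal1-/- replicate 6 (491 CPM). Replicates 1 to 3 and 4 to 6 also differed as blocks. Trib3 at ZT10, for example, ran from 2.94 to 5.67 CPM in replicates 1 to 3 of total RNA and from 8.01 to 18.2 CPM in replicates 4 to 6, but from 22.1 to 59.2 CPM in polysomal replicates 1 to 3 and from 8.94 to 15.1 CPM in 4 to 6. The labels do not say that a block of replicates stands for the same animals or batch in each series. Ratios within replicates 1 to 3 or 4 to 6 alone can therefore mix block with fraction. Values that depend on these libraries are given with and without them.

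**Figure D1:**
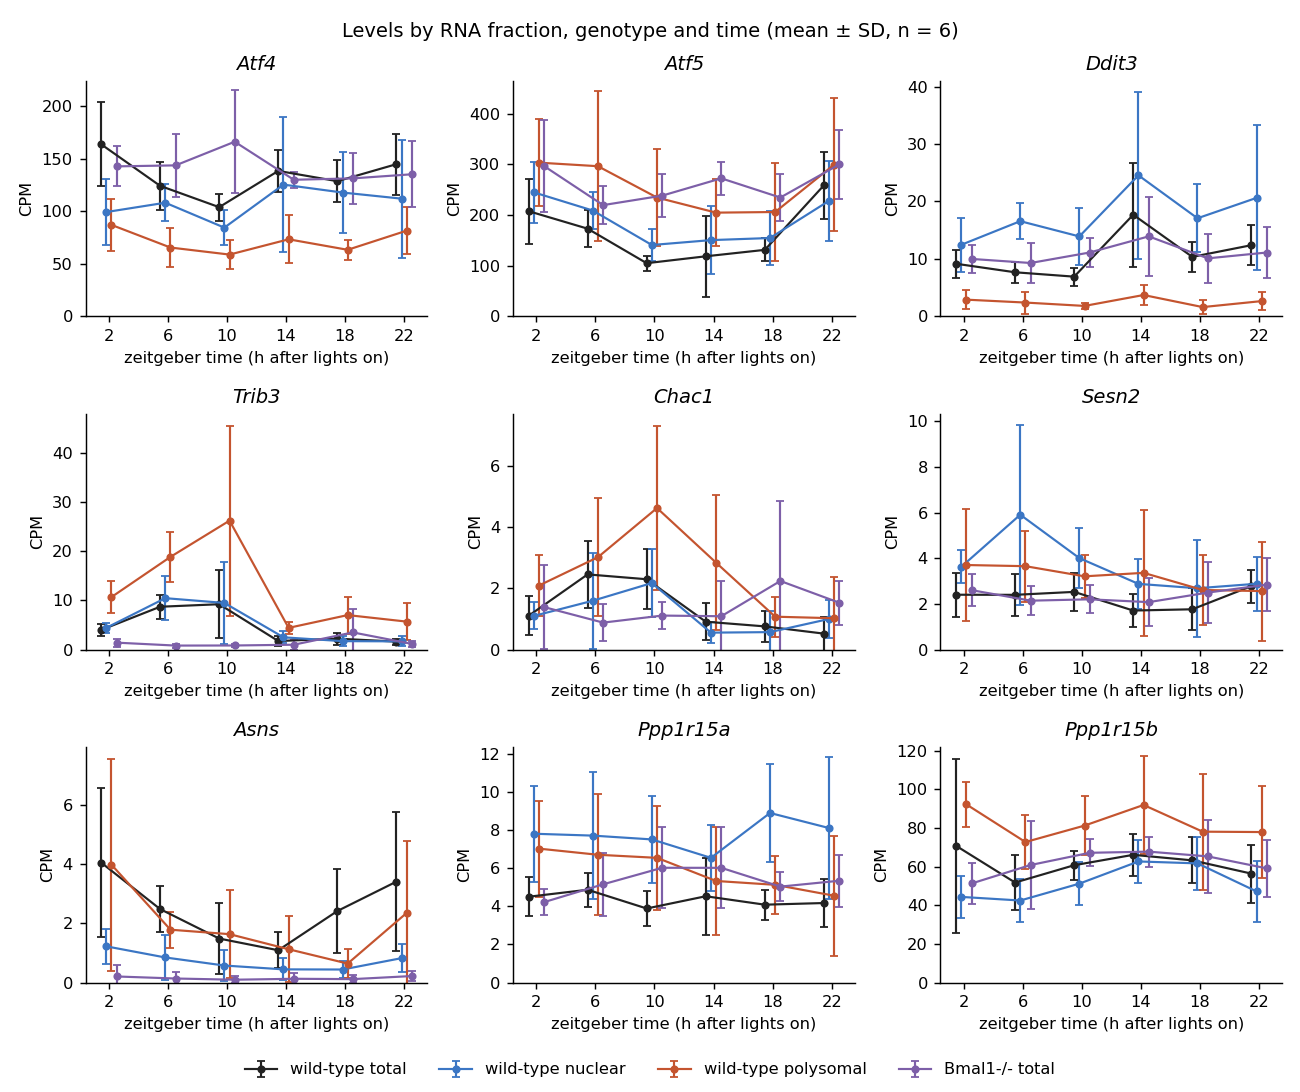
Mean level in CPM (vertical axis, ± SD of 6 libraries, axis starting at 0) of each of the 9 genes at 6 zeitgeber times (horizontal axis, hours after lights on) in the 4 series. Ddit3 and Atf4 lie lowest in polysomal RNA, Trib3 lies highest there, and Asns lies near 0 in Bmal1-/- RNA, with a series mean of 0.151 CPM.

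The genes differed widely in abundance, from Atf5 and Atf4, with medians of 151 and 128 CPM in wild-type total RNA, to Chac1, with a median of 1.16 CPM. The plot of levels by time shows all 9. Because reads come from transcript ends, CPM does not grow with transcript length. In total RNA the order of medians ran Atf5, Atf4, Ppp1r15b (58.6 CPM), Ddit3 (8.91), Ppp1r15a (4.11), Trib3 (3.004), Sesn2 (2.14), Asns (1.77) and Chac1. Ranges of neighbours in this order overlapped at every step except from Ppp1r15b, whose lowest library stood at 32.3 CPM, to Ddit3, whose highest stood at 30.1 CPM.

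Polysomal RNA was compared with total RNA of wild-type liver to show which of these mRNAs were more or less abundant among ribosome-bound transcripts. The mRNAs of the transcription factors ATF4 and CHOP (Ddit3) were lower in polysomal RNA, by 1.96-fold and 4.39-fold, and those of the pseudokinase TRIB3 and the factor ATF5 were higher, by 2.67-fold and 1.54-fold. Chac1 was also higher, and Sesn2, Ppp1r15a and Ppp1r15b rose by smaller factors. Over the mean of the 6 times, edgeR's quasi-likelihood test at an adjusted p of 0.05 called 8 of the 9 genes, 6 higher and 2 lower. Of all 11556 genes tested, 76% were called, 38.8% higher and 37.2% lower, with a median log2 ratio of 0.02 over all genes and 0.37 over the 9. A call by itself therefore says little in this comparison, and the sizes below carry the description. Ranked among the log2 ratios of all genes tested, Ddit3 lay at percentile 4.53, Atf4 at 16.3 and Trib3 at 96.3. Asns lay at 26.5, Ppp1r15a and Ppp1r15b at 66.3, Sesn2 at 69.0, Atf5 at 77.2 and Chac1 at 82.6.

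Ddit3 encodes CHOP, a partner of C/EBP factors that promotes cell death under lasting stress. It ran from 4.37 CPM through a median of 8.91 to 30.1 CPM in total RNA and from 0 through 2.26 to 6.44 CPM in polysomal RNA, with 2 polysomal libraries at 0. At each of the 6 times all 6 polysomal libraries lay below all 6 total libraries, a separation that 3.32% of all genes tested showed in this direction. The log2 ratio was -2.13 (SE 0.17, edgeR adjusted p = 1.29e-18), and by time it ran from -2.66 at ZT18 to -1.78 at ZT2. Ddit3 (GRCm38.p6 chr10:127290793-127296291) overlaps Mars1, listed as Mars, the methionyl-tRNA synthetase gene, whose own count fell by 2.48 on the log2 scale (SE 0.11, edgeR adjusted p = 7.30e-33), and also Mbd6. The labels do not say whether the counting of genes used strand. At the authors' main polyadenylation site of Ddit3 itself, which is listed by strand (plus strand, 127296244 to 127296295), the mean was 5.88 CPM ± 3.06 (SD, n = 36) in total and 1.88 ± 1.34 (SD, n = 36) in polysomal RNA.

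Atf4, the central transcription factor of the response, ran from 88.0 CPM through a median of 128 to 242 CPM in total RNA and from 36.1 through 70.0 to 133 CPM in polysomal RNA. Of the 36 polysomal libraries, 28 lay below the lowest total library, and the groups did not overlap at 5 of the 6 times, where 6.12% of all genes were lower without overlap at 5 or more. At ZT22 they did, with polysomal values up to 116 CPM and total values from 97.7 CPM. The log2 ratio was -0.97 (SE 0.07, edgeR adjusted p = 1.99e-19), and it stayed between -1.07 and -0.87 from time to time.

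Atf5, whose mRNA is translated under control of its own upstream frames, moved the other way from Atf4. It ran from 64.9 CPM through a median of 151 to 351 CPM in total RNA and from 108 through 237 to 547 CPM in polysomal RNA, and 32 of 36 polysomal libraries lay above the total median, although the ranges overlapped. The log2 ratio was 0.62 (SE 0.12, edgeR adjusted p = 3.05e-06). It passed the test at ZT10 (1.09), ZT14 (0.79) and ZT18 (0.69), the times at which Atf5 was low in total RNA. At ZT18 the call was lost in 4 of 7 other settings, among them without the 10 polysomal libraries that held airway or pancreatic transcripts (log2 0.43, adjusted p = 0.222) and without the 6 airway libraries alone (0.46, adjusted p = 0.182). Atf5 overlaps Nup62 and Il4i1b, and the part of their reads in its count was not tested.

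**Figure D2:**
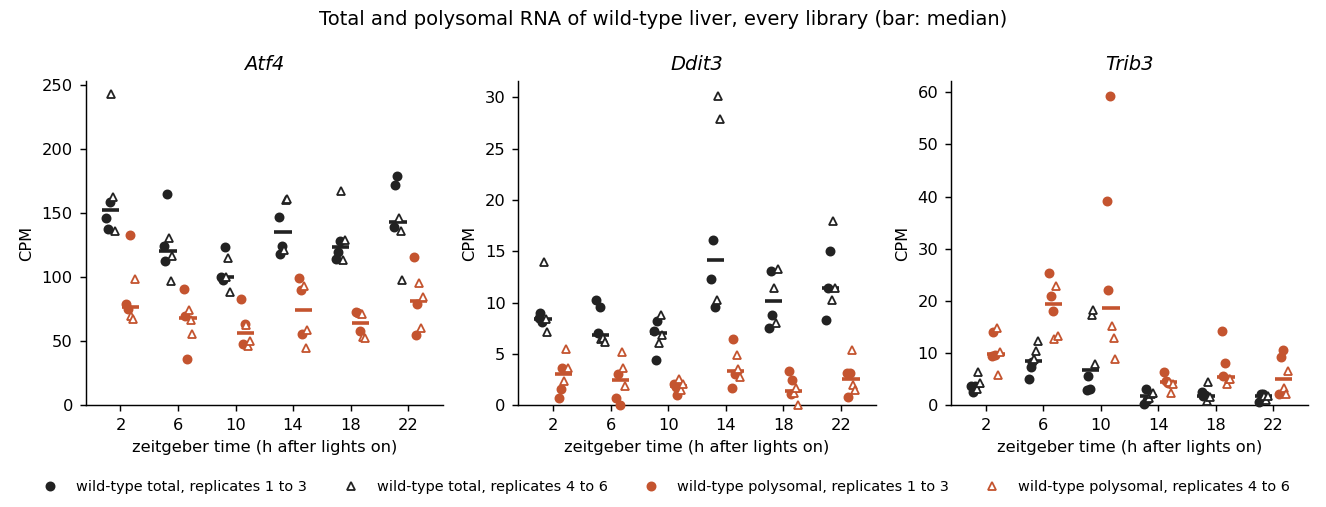
CPM (vertical axis, starting at 0) of Atf4, Ddit3 and Trib3 in every wild-type total (black) and polysomal (orange) library by zeitgeber time (horizontal axis); filled circles are replicates 1 to 3, open triangles replicates 4 to 6, and bars are medians of 6. All Ddit3 polysomal points lie below the total points of the same time, and the highest Trib3 value, 59.2 CPM at ZT10, is a polysomal one of replicates 1 to 3.

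Trib3, a pseudokinase induced by ATF4 that feeds back on it and binds AKT, ran from 0.329 CPM through a median of 3.004 to 18.2 CPM in total RNA and from 2.11 through 9.32 to 59.2 CPM in polysomal RNA. Of 36 polysomal libraries, 33 lay above the total median and 6 above the highest total library. The log2 ratio was 1.42 (SE 0.18, edgeR adjusted p = 1.94e-10), and by time it ran from 0.99 at ZT6 to 1.81 at ZT22. Its size depended on the libraries: it was 2.15 in replicates 1 to 3 alone and 0.62 in replicates 4 to 6 alone, both called. Without the 10 libraries with airway or pancreatic transcripts it was 1.10, and the ratio at ZT10 then no longer passed the test (0.59, adjusted p = 0.229). At ZT6 the call was lost in 5 of 7 other settings (adjusted p from 0.0439 to 0.0865 over the 7), among them without the 6 airway libraries (0.91, adjusted p = 0.0716) and without replicate 4 of total RNA at ZT2 (0.96, adjusted p = 0.0558).

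Chac1 encodes an enzyme that breaks down glutathione. It ran from 0 CPM through a median of 1.16 to 3.42 CPM in total RNA and from 0 through 1.60 to 7.51 CPM in polysomal RNA, with 24 of 36 polysomal libraries above the total median. The log2 ratio was 0.77 (SE 0.25, edgeR adjusted p = 0.00479). It was 0.06 in replicates 1 to 3 alone (adjusted p = 0.893) and 1.24 in replicates 4 to 6 alone (adjusted p = 0.00177), so only the latter block was called alone. The call was lost with replicate number 4 left out of both series (0.36, adjusted p = 0.217). At a mean of 10.6 counts per library in total RNA, Chac1 is close to the lower limit of what was tested.

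Asns, asparagine synthetase, was the gene not called, although 10 of 17 other settings called it lower. It ran from 0.188 CPM through a median of 1.77 to 6.63 CPM in total RNA and from 0 through 1.32 to 9.35 CPM in polysomal RNA, with a log2 ratio of -0.56 (SE 0.28, edgeR adjusted p = 0.0623). The sign of the difference in means was not the same at every time: the polysomal mean was lower at 4 and higher at 2 of the 6 times, and the ratio passed the test at ZT18 alone (-1.89). Without the 10 polysomal libraries with airway or pancreatic transcripts the ratio was -0.90 (adjusted p = 0.00442). Under DESeq2 it was also called (-0.65, adjusted p = 0.0216). It was -0.09 in replicates 1 to 3 alone (adjusted p = 0.850) and -1.24 in replicates 4 to 6 alone (adjusted p = 0.00169).

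Sesn2, a leucine sensor that restrains mTORC1, ran from 0.417 CPM through a median of 2.14 to 3.89 CPM in total RNA and from 0.728 through 2.83 to 8.53 CPM in polysomal RNA. Its log2 ratio was 0.43 (SE 0.19, edgeR adjusted p = 0.0342), and the call was lost without the 10 libraries (0.26, adjusted p = 0.239) and in replicates 4 to 6 alone (0.05, adjusted p = 0.876). It was also lost with replicate number 1 (0.30, adjusted p = 0.202), 3 (0.25, adjusted p = 0.248) or 4 (0.41, adjusted p = 0.0634) left out, and under DESeq2 (0.34, adjusted p = 0.0826). In all, Sesn2 was called in only 8 of 18 other settings. The subunits that direct protein phosphatase 1 to eIF2 and end the response rose by about the same factor. Ppp1r15a, the inducible subunit GADD34, ran from 1.58 through 4.11 to 7.11 CPM in total and from 1.41 through 5.39 to 11.4 CPM in polysomal RNA, with a log2 ratio of 0.37 (SE 0.13, edgeR adjusted p = 0.0110). The call for Ppp1r15a was lost in either block of replicates alone (0.43 with adjusted p = 0.0530 in 1 to 3, and 0.23 with adjusted p = 0.286 in 4 to 6), and with replicate number 1 (0.29, adjusted p = 0.0671) or 2 (0.32, adjusted p = 0.0584) left out. In all, Ppp1r15a was called in 12 of 18 other settings. Ppp1r15b, the constitutive subunit CReP, ran from 32.3 through 58.6 to 161 CPM in total and from 28.8 through 83.9 to 135 CPM in polysomal RNA, with a log2 ratio of 0.37 (SE 0.09, edgeR adjusted p = 0.000408). For both subunits the ranges overlapped, and 28 polysomal libraries of Ppp1r15a and 31 of Ppp1r15b lay above the total median.

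Time by time, 23 of the 54 tests of a gene at a time passed, against 45.1% of such tests over all genes. Atf4 and Ddit3 passed at all 6 times, and so did Trib3, where the call at ZT6 was lost in most other settings. Atf5 passed at 3, Chac1 at ZT14 (log2 1.56) and Asns at ZT18. Sesn2, Ppp1r15a and Ppp1r15b passed at no single time. A test of whether the daily pattern itself differed between polysomal and total RNA called 0 of the 9 genes and 0% of all genes with edgeR, and so did the test for nuclear RNA, over 8 genes; 1 of the 9 in polysomal RNA, Atf5, had an unadjusted p under 0.05 (0.0490), and none of the 8 in nuclear RNA did. These tests do not show that the patterns were alike.

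**Figure D3:**
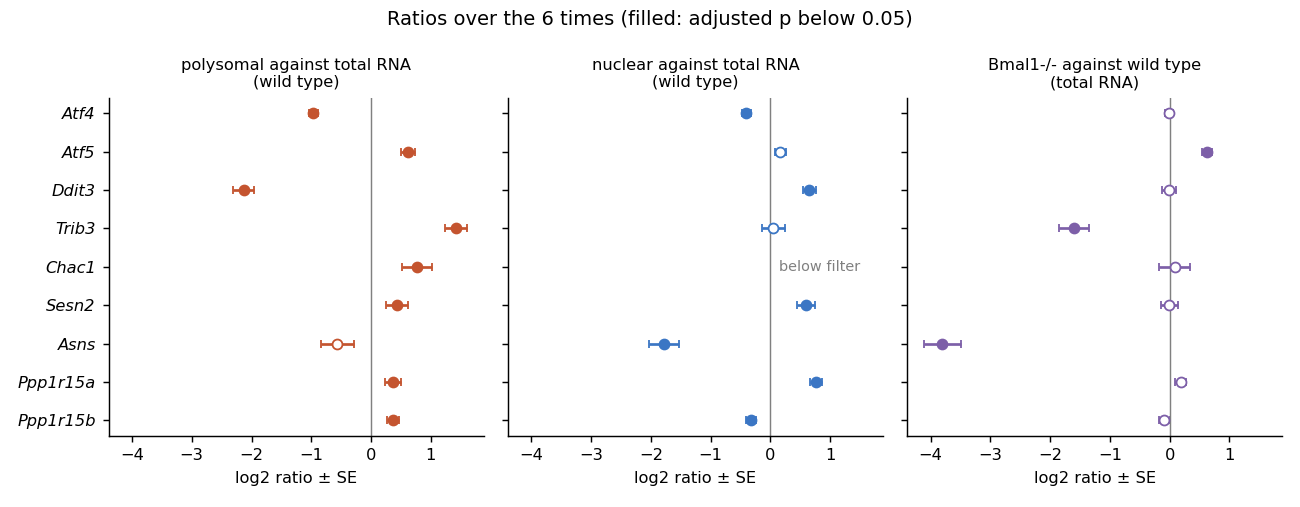
Log2 ratio ± SE (horizontal axis) of each gene against wild-type total RNA over the 6 times, for polysomal RNA, nuclear RNA and Bmal1-/- total RNA; filled points passed an adjusted p of 0.05. The lowest point is Asns in Bmal1-/- RNA at -3.80, and Ddit3 lies at -2.13 in polysomal RNA and 0.65 in nuclear RNA.

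Nuclear RNA was compared with total RNA to show which of these transcripts were relatively more or less abundant in it. The ratios are of relative levels and do not measure export. Those of all 3 comparisons are plotted side by side. Ddit3, Ppp1r15a and Sesn2 were higher in nuclear RNA, and Asns, Atf4 and Ppp1r15b were lower. Of 8 genes tested, edgeR called 6, 3 higher and 3 lower, against 83.8% of all 11864 genes, 41.6% higher and 42.1% lower; Chac1, with a mean of 4.78 counts per nuclear library, fell below the limit for testing. The comparison shares its wild-type total libraries with the polysomal one.

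Ddit3 ran from 6.65 CPM through a median of 15.9 to 49.6 CPM in nuclear RNA, and 32 of 36 nuclear libraries lay above the total median (log2 0.65, SE 0.11, edgeR adjusted p = 2.43e-07). Ppp1r15a ran from 1.80 through 7.76 to 13.4 CPM, with 35 of 36 above the total median (log2 0.76, SE 0.10, edgeR adjusted p = 4.75e-10). Sesn2 ran from 0.548 through 3.08 to 13.6 CPM and had a log2 ratio of 0.60 (SE 0.15, edgeR adjusted p = 0.000210). Of these, Ppp1r15a passed at 5 of the 6 times, Ddit3 at ZT6 and ZT10 and Sesn2 at ZT6.

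Asns had the lowest nuclear ratio of the 8 genes tested. It ran from 0 CPM through a median of 0.665 to 2.14 CPM in nuclear RNA, with 5 libraries at 0, and its log2 ratio was -1.78 (SE 0.26, edgeR adjusted p = 2.89e-09). Atf4 ran from 50.4 through 101 to 205 CPM (log2 -0.40, SE 0.08, edgeR adjusted p = 5.19e-06) and Ppp1r15b from 28.0 through 51.4 to 83.7 CPM (log2 -0.32, SE 0.09, edgeR adjusted p = 0.000671). The Ppp1r15b ratio passed by time at ZT2 alone, and there it was lost without replicate 4 of total RNA, whose Ppp1r15b value was 161 CPM (log2 -0.20, adjusted p = 0.379). Atf5 (0.17, edgeR adjusted p = 0.106) and Trib3 (0.05, edgeR adjusted p = 0.818) were not called; 4 of 16 other settings called Atf5 higher, among them the fit with each number at each time as a pair (0.18, adjusted p = 0.0283). In all, 15 of 48 tests of a gene at a time passed, against 60.1% over all genes.

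Daily rhythm, a cosine and sine with a period of 24 h, was tested for each series separately. In wild-type total RNA 6 of the 9 genes passed, against 18.9% of all 11964 genes tested. Trib3 and Chac1 peaked in the light phase, at fitted times of ZT7.30 and ZT7.78. Asns, Atf5 and Atf4 peaked near the end of the dark phase or the start of the light, at ZT0.372, ZT0.142 and ZT22.6, and Ddit3 peaked at ZT17.6. The fitted peaks of Trib3, Chac1 and Ddit3 lay apart from that of Atf4, while that of Asns lay near it. Differences between these peaks were not tested.

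The widest swings in wild-type total RNA were those of Trib3, with a fitted peak-to-trough ratio of 6.19 (edgeR adjusted p = 1.64e-05), Chac1, with 4.30 (edgeR adjusted p = 0.00132), and Asns, with 3.51 (edgeR adjusted p = 0.00974). Trib3 ran from 5.13 CPM through a median of 8.54 to 12.2 CPM at ZT6 and from 0.329 through 1.75 to 3.07 CPM at ZT14, so its groups at these times did not overlap. Chac1 had a median of 3.01 CPM at ZT6 and 0.309 CPM at ZT22. Asns had a median of 5.17 CPM at ZT2 and 1.13 CPM at ZT14, but at ZT2 its libraries reached from 0.188 to 6.63 CPM. Atf5 had a ratio of 2.43 (edgeR adjusted p = 6.49e-05), Ddit3 one of 1.99 (edgeR adjusted p = 0.0111) and Atf4 one of 1.42 (edgeR adjusted p = 0.0152). Sesn2, Ppp1r15a and Ppp1r15b were not called, with ratios from 1.10 to 1.46. In replicates 4 to 6 alone, only 1 of these rhythms, that of Trib3, was called, and Chac1 was below the limit for testing there. The call for Atf4 was lost with replicate number 1, 2, 3 or 4 left out (adjusted p from 0.0513 to 0.112), that for Ddit3 without number 2 or 6 (0.0678 and 0.0934) and that for Asns without number 5 (0.0628).

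In nuclear RNA 2 of 7 genes tested passed, against 5.99% of all genes. These were Trib3, with a ratio of 8.33 and a peak at ZT7.25 (edgeR adjusted p = 9.85e-07), and Atf5, with 1.82 and ZT1.58 (edgeR adjusted p = 0.00390). In polysomal RNA 2 of 8 passed, against 7.9% of all genes: Trib3, with 3.89 and ZT7.75 (edgeR adjusted p = 0.00313), and Chac1, with 4.30 and ZT9.31 (edgeR adjusted p = 0.0207). Trib3 was thus called in all 3 wild-type fractions, with fitted peaks from ZT7.25 to ZT7.75. The polysomal rhythm of Chac1 was lost without the 10 libraries with airway or pancreatic transcripts (adjusted p = 0.167) and without the 6 airway libraries (adjusted p = 0.0953), and with number 5 or 6 left out (0.128 and 0.144); the nuclear one of Atf5 was lost without number 2 (0.0579). In Bmal1-/- total RNA 0 of 8 genes passed with edgeR, as against 0.00825% of all genes, and 1 of the 8, Trib3, had an unadjusted p under 0.05 (0.0213).

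Total RNA of Bmal1-/- liver was compared with that of wild-type liver to show what changes without the clock factor. Asns was 13.95-fold lower and Trib3 3.03-fold lower in Bmal1-/- liver, and Atf5 was 1.54-fold higher. The means of Atf4 itself, of Ddit3, Chac1 and Sesn2 and of both phosphatase subunits did not pass the test. In edgeR 3 of 9 genes were called, 1 higher and 2 lower, where 44.1% of all 12082 genes were called, 22.4% higher and 21.7% lower.

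Asns, which makes asparagine from aspartate and glutamine, ran from 0 CPM through a median of 0.109 to 0.980 CPM in Bmal1-/- RNA, against 0.188 through 1.77 to 6.63 CPM in wild type. It was at 0 in 16 of 36 Bmal1-/- libraries, and 26 lay below the lowest wild-type library. The log2 ratio was -3.80 (SE 0.30, edgeR adjusted p = 4.78e-17). It passed at all 6 times, from -4.30 at ZT18 to -2.88 at ZT14, and the groups did not overlap at 4 of them, where 0.513% of all genes were lower without overlap at 4 or more. Mean counts were 19.4 per wild-type and 1.44 per Bmal1-/- library, so the size of the ratio rests on few reads in the latter. The ratio ran from -4.01 to -3.66 over 14 other settings and was called in all of them.

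Trib3 ran from 0 CPM through a median of 0.874 to 12.1 CPM in Bmal1-/- RNA, with a log2 ratio of -1.60 (SE 0.25, edgeR adjusted p = 1.97e-07). The fall was at the hours of its wild-type peak. At ZT6 the Bmal1-/- libraries ran from 0.352 through 0.843 to 1.25 CPM and the wild-type ones from 5.13 through 8.54 to 12.2 CPM (log2 -3.45, SE 0.61, edgeR adjusted p = 4.86e-05), and at ZT10 the log2 ratio was -3.57 (SE 0.62, edgeR adjusted p = 1.21e-05). The groups did not overlap at these times (2.28% of all genes were lower without overlap at 2 or more times), and no other time passed. At ZT18, replicates 5 and 6 of Bmal1-/- RNA were high in both Trib3 (12.1 and 6.47 CPM) and Chac1 (6.42 and 4.62 CPM), and without them the ratio of Trib3 over all times was -2.02.

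**Figure D4:**
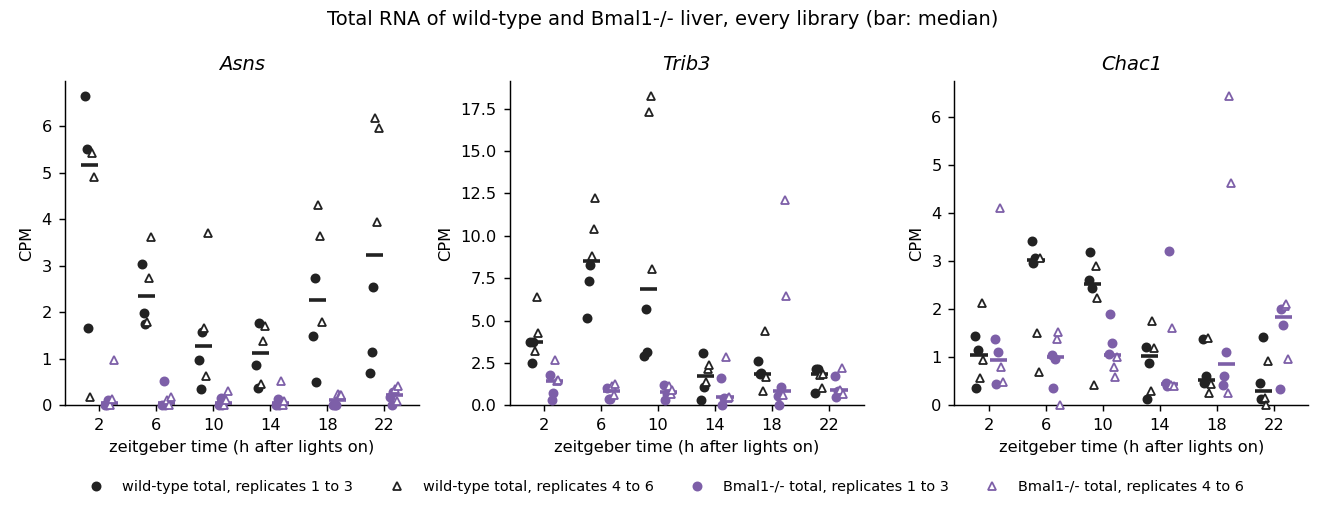
CPM (vertical axis, starting at 0) of Asns, Trib3 and Chac1 in every wild-type (black) and Bmal1-/- (purple) total RNA library by zeitgeber time (horizontal axis); filled circles are replicates 1 to 3, open triangles replicates 4 to 6, and bars are medians of 6. All Bmal1-/- points of Asns lie at or below 0.980 CPM, and those of Trib3 at ZT6 and ZT10 lie below every wild-type point of the same time.

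Atf5 ran from 151 CPM through a median of 255 to 440 CPM in Bmal1-/- RNA, and 35 of 36 libraries lay above the wild-type median (log2 0.63, SE 0.09, edgeR adjusted p = 2.40e-08). It passed at ZT10 (1.11), ZT14 (1.15) and ZT18 (0.66), the last of which was lost without the same replicates 5 and 6 (0.59, adjusted p = 0.131). Atf4, at 106 through 138 to 246 CPM, had a log2 ratio of -0.01 (SE 0.06, edgeR adjusted p = 0.917) over the day but was higher at ZT10 (0.60, SE 0.15, edgeR adjusted p = 0.00345). In all, 12 of 54 tests of a gene at a time passed, against 10.9% over all genes. Ppp1r15a had a log2 ratio of 0.18 (SE 0.10, edgeR adjusted p = 0.127), Ppp1r15b one of -0.09 (SE 0.09, edgeR adjusted p = 0.461) and Chac1 one of 0.08 (SE 0.25, edgeR adjusted p = 0.826).

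The daily pattern differed between the genotypes for 4 of the 9 genes by the interaction test, against 5.18% of all genes. These were Trib3 (edgeR adjusted p = 6.22e-05), Chac1 (edgeR adjusted p = 0.00511), Atf5 (edgeR adjusted p = 0.0249) and Atf4 (edgeR adjusted p = 0.0365). Chac1 had no overall difference in level: its wild-type medians ran from 3.01 CPM at ZT6 to 0.309 CPM at ZT22, while in Bmal1-/- RNA they ran from 0.439 CPM at ZT14 to 1.84 CPM at ZT22. For Asns the interaction was not called (edgeR adjusted p = 0.971), and its Bmal1-/- libraries held a mean of only 1.44 counts. The difference for Trib3 was called in 14 of 15 other settings, and was lost in replicates 1 to 3 alone (adjusted p = 0.576). Those for Atf5, Chac1 and Atf4 were called in 9 of 15, 9 of 13 and 5 of 15.

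Other genes of the pathway, in 5 lists made by name, were read in the same fits. Of 17 genes of the eIF2 kinases, eIF2 and its exchange factor and phosphatase, 7 were higher and 6 lower in polysomal RNA, with a list median of -0.01. Ppp1ca, a catalytic subunit of protein phosphatase 1, was highest, at 167 CPM ± 92.4 in polysomal against 1.10 ± 0.468 (SD, n = 36 each) in total RNA (log2 7.17), followed by the eIF2B subunit Eif2b2 (1.15), while Eif2ak2, the kinase PKR, fell by 1.26 on the log2 scale. The Ppp1ca ratio stood far from the others of its list. Which sites its polysomal reads came from was not examined, so the ratio cannot be read as ribosome loading. Of 12 ATF4 partners and stress targets tested of 17 listed, 6 rose and 2 fell (median 0.48), with the partners Cebpb at 1.93 and Cebpa at 1.23. Of 9 amino acid supply genes tested of 17, 5 rose and 1 fell (median 0.41), among them the glycine transporter Slc6a9 at 0.68 and the neutral amino acid transporter Slc38a2 at -0.47. Of 21 cytosolic aminoacyl-tRNA synthetase genes, 5 rose and 12 fell (median -0.28), with Mars at -2.48 and Eprs at -1.74. Of 11 other mRNAs known for upstream frames, which include both C/EBP genes, 5 rose and 4 fell (median 0.10), and Mdm2 fell by 1.04. These shares stand beside the 76% called among all genes, whose median was 0.02.

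In nuclear RNA 8 of 16 eIF2 genes rose and 7 fell, with Gcn1l1, the partner of GCN2, at 2.22 and Eif2b1 at -2.59. Among the synthetases 5 of 21 rose and 13 fell, with Farsa at 1.41 and Tars at -1.58. Among the partners and stress targets 3 of 12 rose and 6 fell, and 4 of 9 amino acid genes rose and 1 fell. Of the 11 mRNAs with upstream frames 2 rose and 8 fell, with the initiation factor Eif5 at -2.19. The median over all genes was -0.01, and 83.8% were called.

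In Bmal1-/- RNA 2 of 9 amino acid genes rose and 3 fell, where 22.4% of all genes were higher and 21.7% lower. Slc1a4, a transporter of alanine, serine and cysteine, rose by 1.15 on the log2 scale, while Gpt2, a mitochondrial alanine transaminase, fell by 0.99 and Slc6a9 by 0.95; the median of the list was -0.05, against 0.01 over all genes. Of 12 partners and stress targets 2 rose and 5 fell, with Ddit4, an inhibitor of mTORC1, at 0.61 and Herpud1, of the endoplasmic reticulum stress response, at -0.97. The eIF2 genes gave 5 higher and 3 lower of 17, the synthetases 8 higher and 3 lower of 21, with Hars at 0.68, and of the 11 mRNAs with upstream frames 6 fell. In wild-type total RNA 6 of 12 partners and stress targets and 6 of 9 amino acid genes were rhythmic, as were 3 of 16 eIF2 genes and 4 of 21 synthetases, where 18.9% of all genes were; the difference between the lists was not tested.

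Polyadenylation sites bear on these values because the reads come from them. Ppp1r15b, on the plus strand of chromosome 1 (GRCm38.p6 chr1:133131166-133139800), had 2 sites with enough reads to test in every comparison, a nearer one at 133138403 to 133138456 and the last one at 133139671 to 133139785. The authors listed 9 sites in the gene and kept 4 of them in their filtered list, and the tested shares are of the counts at these 4. Of those counts, 11.7% ± 5.36 (SD, n = 36) lay at the nearer site in total RNA, 20.4% ± 10.7 in polysomal RNA, 25.4% ± 15.0 in nuclear RNA and 13.7% ± 11.3 in Bmal1-/- RNA. Medians were 10.7%, 18.9%, 21.9% and 10.9%, and the ranges overlapped. The change in its share passed edgeR's test in polysomal RNA (log2 0.79, SE 0.14, adjusted p = 1.94e-06) and in nuclear RNA (log2 1.01, SE 0.14, adjusted p = 1.96e-09), not in Bmal1-/- RNA (log2 0.12, SE 0.15, adjusted p = 0.716). Among the 4 filtered sites, the share of the last one fell from 84.7% ± 6.67 to 76.03% ± 11.5 in polysomal and 69.1% ± 15.6 in nuclear RNA (SD, n = 36; edgeR log2 -0.15 with adjusted p = 0.00257, and -0.26 with adjusted p = 1.07e-05). The fall in polysomal RNA did not pass in replicates 1 to 3 alone (adjusted p = 0.105).

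These sizes depend on which sites make up the total. Of the counts at all 9 sites, 10.4% ± 4.36 lay at the nearer site in total, 16.3% ± 7.92 in polysomal and 13.1% ± 5.44 in nuclear RNA (SD, n = 36). The last site then held 76.05% ± 7.82, 61.7% ± 11.6 and 39.4% ± 13.7 (SD, n = 36). With this total the nuclear change of the nearer site was much smaller (edgeR log2 0.33, SE 0.12, adjusted p = 0.0141), and the fall of the last site was larger (edgeR log2 -0.93, SE 0.09, adjusted p = 1.96e-14). In polysomal RNA the values were 0.64 (edgeR adjusted p = 3.94e-05) and -0.30 (edgeR adjusted p = 3.00e-06). The site with the most nuclear counts among those outside the filtered list, at 133132775 to 133132825, had 6.91 CPM in nuclear and 2.96 CPM in total RNA. Calls of site usage were common: 70.5% of all sites tested were called in polysomal, 78.7% in nuclear and 9.1% in Bmal1-/- RNA.

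**Figure D5:**
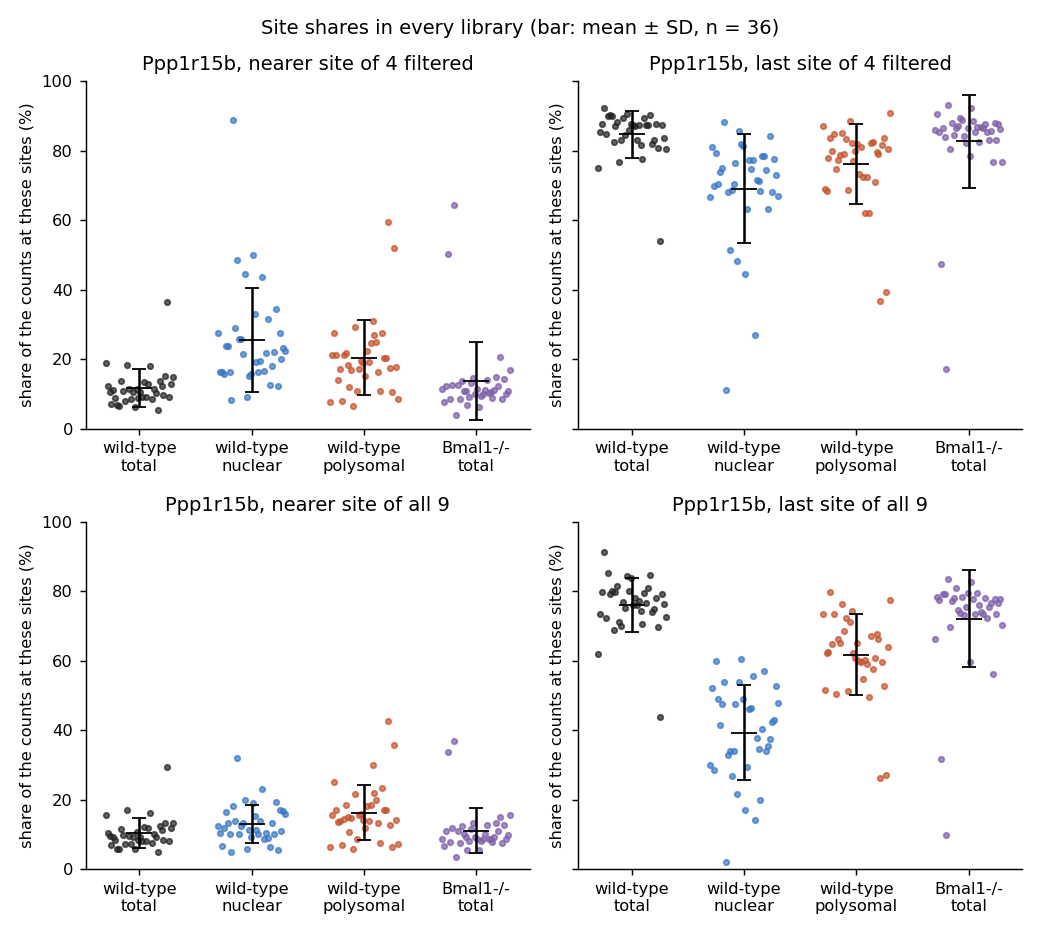
Share (%, vertical axis from 0 to 100) of Ppp1r15b counts at the nearer and the last polyadenylation site in every library of the 4 series (points, in order of time and replicate; bars, mean ± SD of 36), out of the 4 filtered sites (upper panels) or all 9 sites (lower panels). The nearer site has a nuclear mean of 25.4% of the filtered sites but 13.1% of all sites; the highest nuclear point, 88.9%, is 1 library with 9 counts at the filtered sites, and the next is 50%.

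Ddit3 had a change in site use in nuclear RNA. Its site at 127295869 to 127295881 held 10.2% ± 5.36 of counts at the filtered sites in total and 17.3% ± 10.8 in nuclear RNA (SD, n = 36; edgeR log2 0.69, adjusted p = 0.00164; lost in replicates 4 to 6 alone, log2 0.56, adjusted p = 0.117), and its site at 127296028 to 127296073 held 11.01% ± 5.62 and 3.57% ± 4.78 (SD, n = 36; edgeR log2 -2.11, adjusted p = 2.68e-08). The main site, at the end of the gene, held 73.6% in both. With all sites of Ddit3 in the total, these changes were 0.72 and -2.09 (edgeR adjusted p = 0.00101 and 3.13e-08). The nuclear rise of Ddit3 was thus present at its main site too, with 8.83 CPM in nuclear and 5.88 CPM in total RNA. For the other 7 genes no site passed the limits for a test of usage. Ppp1r15a overlaps Tulp2, and its site at 45522918 on chromosome 7 rose from 1.93 CPM in total to 3.61 CPM in polysomal RNA, in the direction of the gene count. Its other listed sites, with fewer reads, went the other way. Means in total and polysomal RNA were 0.483 and 0.356 CPM at 45523039, and 0.0310 and 0.0271 CPM at 45524142. The part of Tulp2 reads in the gene count was not tested.

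Across the means of the 24 groups of series and time, on a scale of log2(CPM + 0.5), the members did not follow 1 pattern. Chac1 was left out here, as it was below the limit for testing in nuclear RNA. As a description, Pearson's r over 24 groups, which share fraction and depth within a series, was 0.73 between Atf4 and Ddit3 and 0.55 between Trib3 and Asns, but -0.76 between Atf4 and Trib3 and -0.07 between Atf4 and Atf5. Among 11215 genes, the closest to Atf4 were 1700024P16Rik (r = 0.96), Tecpr2 (0.95) and Nmnat1 (0.94), and the closest to Ddit3 were Erc1, A330023F24Rik and Nsd1 (each 0.97). Closest to Trib3 were C77080 (0.94), Ypel3 and Rcl1 (each 0.92), and closest to Asns were Rcan2 (0.91), Gpd1 (0.88) and Col15a1 (0.87). Atf5 was closest to 6430573F11Rik (0.90), Camk1d (0.86) and Mad2l2 (0.85). Ppp1r15a was closest to Myrf (0.93), Pcdhgc3 and Pcdhga3 (each 0.90), Ppp1r15b to Ssfa2 and Hopx (each 0.93) and Trmt61b (0.90), and Sesn2 to Inca1 and Ift46 (each 0.86) and Fbxo21 (0.83). None of the closest 3 of any of these members was another of them, and Chac1 was not among the genes compared.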

How the data were processed

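Liver RNA of 144 libraries was measured by 3′ mRNA sequencing. The authors deposited raw counts per gene symbol and per polyadenylation site, 1 column per library, which were used as they stand. Per the submitters' processing notes, STAR 2.4.2a, edgeR and HOMER were used, with builds mm10 and GRCm38.p5; which step each served, and whether counting used strand, is not given in the sources used here. The authors' normalized tables were not used. Columns were matched to samples by title, and 0 were left without a sample. Within groups, 0 of 360 pairs of libraries were copies (chi-square over degrees of freedom at least 4.89).

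Gene counts were tested in R 4.3.3 with edgeR 4.0.16 (TMM scaling, robust quasi-likelihood F test, Benjamini-Hochberg adjustment over all genes, threshold 0.05) for genes whose mean count was 10 or higher. Each fit held the libraries of the 2 series compared, in 12 groups of series and time; ratios are over the mean of the 6 times. SE is the size of the log2 ratio divided by the square root of F. Rhythm was tested within a series, and its difference as an interaction. Site usage was tested on site counts with the gene's total over filtered sites plus 0.5 as offset, for sites holding 5% or more of their gene, where the gene had at least 2 such sites and its mean count reached 50. Sites were given to genes by the RefSeq GRCm38.p6 table; 20.5% of the 29199 filtered sites lay within 25 bp of a gene end, and 0.05% did once moved by 5000 bp. DESeq2 1.42.0 was an alternative.

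Named were the 9 genes, Arntl, the 2 largest rises and falls past the threshold per pathway list and comparison, the 3 genes most like each member, and Neat1, Malat1 and Alb; the text gives a part of these. Malat1 fell from a mean of 1839 CPM in total to 53.8 CPM in polysomal RNA, and Alb from 49840 to 20844 CPM. Marker lists not given elsewhere had median sums in total and polysomal RNA of 224 and 255 CPM (Kupffer cell), 262 and 215 (sinusoidal endothelial cell), 323 and 282 (stellate cell), 25.7 and 18.8 (cholangiocyte), 2.05 and 3.36 (adipocyte) and 1.10 and 1.60 (lymphocyte). In Bmal1-/- total RNA the same lists, in this order, had 205, 263, 378, 73.5, 0.310 and 1.22 CPM. Hepatocyte markers had 74133 CPM there and erythroid markers 1464 CPM. The part of cell make-up in the Bmal1-/- ratios was not tested. The members and lists were chosen with earlier results of these data known, and the pancreatic markers were added after the libraries were seen.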

Additional observations from a re-analysis of the deposited data

Results flagged for a closer look

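Within the 216 groups of 6 libraries (9 genes, 4 series, 6 times), 24 held a library far from the other 5. The rule marks about 1 in 20 groups of independent, normally distributed values. These groups share libraries and some lie near 0 CPM, so whether the count exceeds chance was not tested. Replicate 4 of wild-type total RNA at ZT2, the library least like its group, was high in 3 of the genes: Atf4 at 242 CPM (next library 162), Ddit3 at 13.9 CPM (next 8.98) and Ppp1r15b at 161 CPM (next 62.0). Atf4 was also high at ZT18 in replicate 4 of total RNA (167 CPM) and in replicate 4 of nuclear RNA (194 CPM), and Atf5 was high at ZT18 in nuclear replicate 5 (259.5 CPM). Ddit3 was high in Bmal1-/- replicate 1 at ZT14 (27.4 CPM), and in the same library Ppp1r15a was high (10.05 CPM). Trib3 was high in nuclear replicate 5 at ZT2 (6.34 CPM).

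Chac1 was low in total RNA replicate 4 at ZT10 (0.415 CPM, next 2.23) and high in polysomal replicate 4 at ZT22 (3.69 CPM) and Bmal1-/- replicate 4 at ZT2 (4.11 CPM). In the last of these libraries Ppp1r15b was low (31.7 CPM). Asns was high among the Bmal1-/- libraries in replicate 6 at ZT2 (0.980 CPM), replicate 2 at ZT6 (0.527 CPM) and replicate 4 at ZT14 (0.527 CPM), at levels set by few reads. Ppp1r15a was high in total RNA replicate 5 at ZT10 (5.65 CPM) and in Bmal1-/- replicate 1 at ZT10 (10.3 CPM) and low in Bmal1-/- replicate 3 at ZT22 (2.65 CPM). Ppp1r15b was high in total RNA replicate 2 at ZT10 (75.5 CPM) and in Bmal1-/- replicate 2 at ZT22 (87.4 CPM). Sesn2 was high in nuclear replicate 4 at ZT6 (13.6 CPM) and in polysomal replicate 3 at ZT14 (8.53 CPM) and ZT22 (6.73 CPM).

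By the interaction test in edgeR, the genotypes differed in the daily pattern of Trib3 (adjusted p = 6.22e-05), Chac1 (adjusted p = 0.00511), Atf5 (adjusted p = 0.0249) and Atf4 (adjusted p = 0.0365).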

How the results depend on the processing

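Counts of the 9 genes called kept within 1.5 times of the reported count in 161 alternative values, and 21 moved further. The rhythm difference of Bmal1-/- (4 genes) gave 1 in replicates 1 to 3 alone, 1 in replicates 4 to 6 alone, 1 with all 4 series in one fit and 1 to 3 when each replicate number was left out. Rhythm in total RNA (6 genes) gave 1 in replicates 4 to 6 alone, where Chac1 was not tested. Nuclear rhythm (2 genes) gave 4 with the replicate block, 1 in replicates 4 to 6 alone and 1 to 3 with a number left out. Polysomal rhythm (2 genes) gave 0 in replicates 1 to 3 alone, 1 with time as 6 groups, 1 without the airway libraries, 1 without the airway or pancreas libraries and 1 to 2 with a number left out. Site usage in polysomal (2 sites) and nuclear RNA (4 sites) gave 1 and 2 in replicates 1 to 3 alone. The libraries with other-tissue, Xist or outlying values were left out as alternatives chosen after seeing the data.

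Signs turned only for log2 ratios that were not called. For Trib3 in nuclear RNA (0.05) the value was -0.0580 with the count limit lowered to 1, -0.0259 in replicates 4 to 6 alone and -0.0110 to 0.107 with a number left out. For Bmal1-/- against wild type the values were, in replicates 1 to 3 alone, 0.255 for Ddit3, -0.279 for Chac1 and 0.102 for Sesn2, and in replicates 4 to 6 alone 0.0379 for Atf4. With all 4 series in one fit Ddit3 gave 0.0140, Sesn2 0.0124 and Atf4 0.00864, and with each number at each time a pair (replicate block) Chac1 gave -0.0372. Ddit3 gave 0.00717 without the Xist libraries, 0.0279 without replicate 4 of total RNA at ZT2 and 0.000707 without replicates 5 and 6 of Bmal1-/- at ZT18, and Atf4 gave 0.0231 without the former.
With a number left out, ranges for Bmal1-/- were -0.0575 to 0.0312 for Atf4, -0.0911 to 0.250 for Chac1, -0.147 to 0.0789 for Ddit3, -0.162 to 0.0201 for Ppp1r15b and -0.0714 to 0.0486 for Sesn2.

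Deviations of same-numbered libraries from their group means correlated with those of total RNA by a mean r of 0.32 in nuclear, -0.12 in polysomal and 0.07 in Bmal1-/- RNA, and 30, 0 and 15 of 36 libraries were closest to their own number. In nuclear RNA 34 of 36 correlations were above 0.1, a hint from the data, not from the labels, that nuclear and total libraries of a number belong together; the reported fits do not pair them. With the replicate block the counts called were 8 of 9 in polysomal, 6 of 8 in nuclear and 3 of 9 in Bmal1-/- RNA, as without it, and with each number at each time as a pair they were 6, 7 and 3, the added nuclear gene being Atf5. In Bmal1-/- RNA such a pair joins mice of different genotype. In polysomal RNA 0 of 36 libraries were closest to their own number. The polysomal correlations ran from -0.466 to 0.0769, so same-numbered polysomal and total libraries on average deviated in opposite directions. The paired counts of 6 and 3 therefore rest on pairs not known to share an animal. Of all sites tested in nuclear RNA 4288 were higher and 5176 lower in share, and with all sites of a gene in its total, an alternative chosen after seeing the data, 3276 and 6504. In Bmal1-/- RNA 1237 sites were called, 2012 with the replicate block and 788 in replicates 1 to 3 alone. Depth limits Chac1, Asns, Sesn2, polysomal Ddit3 and Bmal1-/- Trib3, whose means lay between 1.44 and 19.4 counts per library in the series compared.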
